A study of Danio rerio with 8 samples.

Results

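Lens crystallin genes were examined in RNA from fluorescence-sorted cells of the zebrafish pineal complex. The family comprised the 48 rows, of 32433 in the authors' deposited table, whose gene symbol begins with cryaa, cryab, cryb or cryg, the names of the alpha, beta and gamma crystallins. Cryptochromes, whose symbols also begin with cry, are circadian and light-sensing proteins unrelated to the lens and were not included. All embryos carried the transgene Tg(flhBAC:kaede)vu376, in which regulatory sequence of flh, a homeobox gene of the pineal anlage, drives the photoconvertible protein Kaede, and positive cells were sorted from heads at 24 to 26 hours post-fertilization. The 4 wild-type libraries came from embryos that had not been injected, and the 4 knockdown libraries from embryos given a splice-blocking morpholino against the T-box gene tbx2b, with 5 ng used for 2 libraries and 6 ng for the other 2. Since the labels describe pairs of libraries as technical replicates, each group rests on 2 RNA samples, which in the knockdown differ in dose. The library titles carry 2 prefixes, each on 2 wild-type and 2 knockdown libraries, and what the prefixes stand for was not given. The table gives each gene 1 FPKM value for each group (fragments scaled to transcript length and to library size, by a setting that was not given). Neither the spread between libraries nor their depth could therefore be given, and every FPKM value below is the authors' group value.

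Crystallins are the abundant soluble proteins that give the vertebrate lens its refractive power. Alpha crystallins belong to the small heat shock proteins and act as chaperones. Beta and gamma crystallins share a fold built from Greek key motifs; beta crystallins form oligomers of acidic and basic subunits, whereas gamma crystallins are monomers, and fish carry a large group of methionine-rich gamma M genes suited to a dense, hard lens. Crystallin synthesis accompanies the elongation of lens fibre cells, and some members are also made outside the lens, such as alpha B crystallin in muscle and beta crystallins in the retina. The sorted cells are labelled as pineal complex cells, so the crystallin levels are those of RNA found in that sorted population and not of dissected lenses.

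Beta crystallins made up most of the crystallin RNA in both groups, and their summed level was lower in the knockdown, though no single gene passed the authors' test. Of the 48 genes, 33 were above 0 in at least 1 group, 31 of them in wild-type and 26 in the knockdown, and 15 were listed at 0 in both. The summed FPKM of the family was 76.2 in wild-type and 43.1 in the knockdown. The 12 beta genes held 83.3% of the wild-type sum and 76.6% of the knockdown sum, the 33 gamma genes 16.0% and 22.8%, and the 3 alpha genes less than 1 FPKM together in each group. Because the cells were sequenced in bulk, fewer crystallin-expressing cells and less crystallin RNA per cell cannot be told apart.

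**Figure D1:**
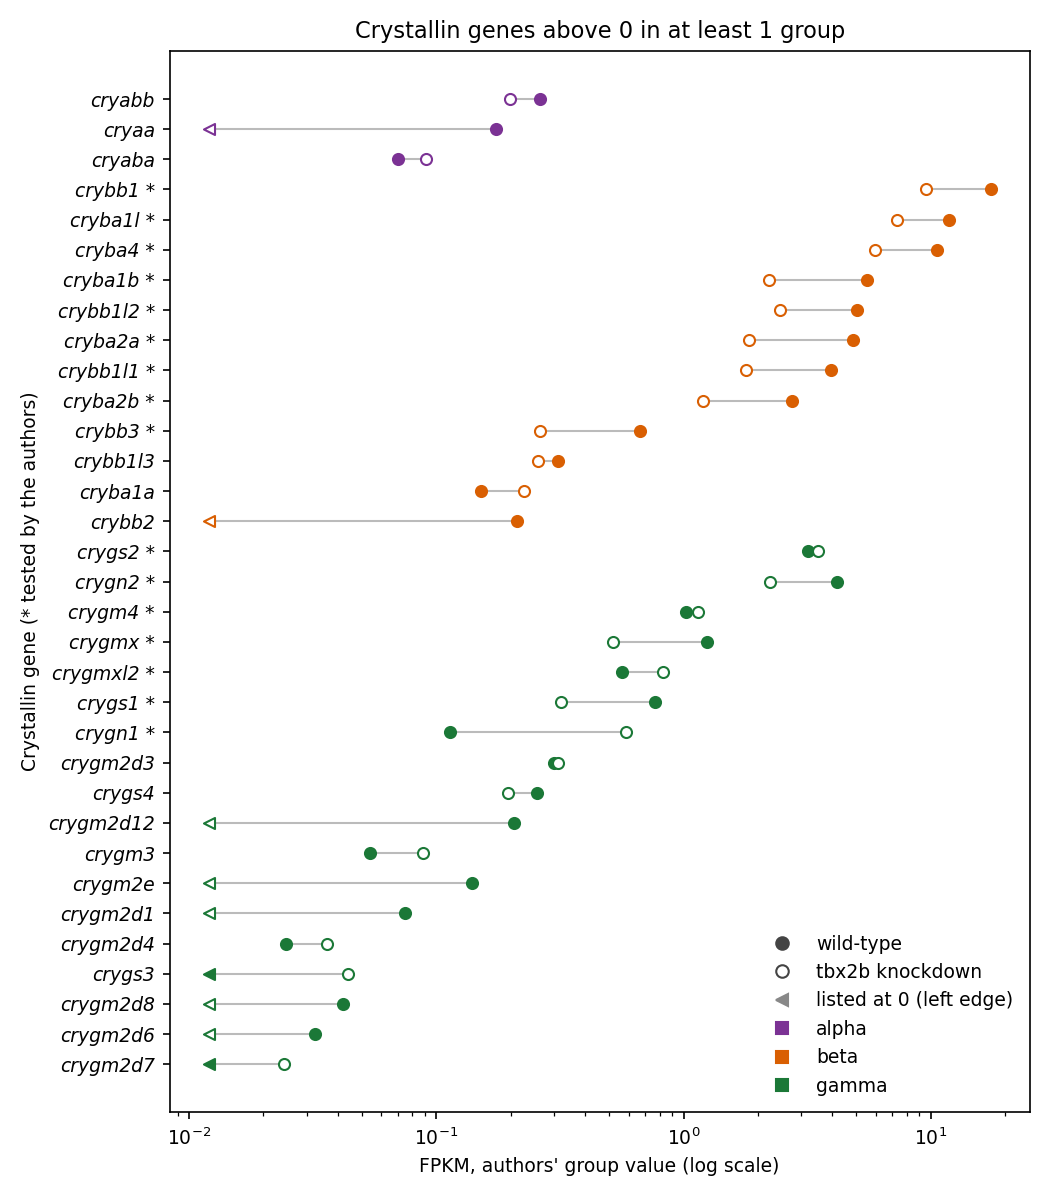
FPKM of the 33 crystallin genes above 0 in at least 1 group, on a log axis, with filled symbols for wild-type and open symbols for the knockdown; triangles at the left edge are values listed at 0, and asterisks mark the 16 genes the authors tested. The 9 tested beta genes all have the open symbol to the left of the filled one, while gamma genes lie in both directions.

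None of the crystallins was called by the authors. Their Cuffdiff test was run on 16 of the 48 genes, 9 beta and 7 gamma, and 0 of these passed, where 0.438% of the 18954 tested genes in the table did. The 32 crystallins that were not tested reached at most 0.312 FPKM in either group. Of the tested crystallins 12 were lower in the knockdown by any amount, against 54.1% of all tested genes, and 8 were at least 2-fold lower, against 3.74%. At an unadjusted deposited p under 0.05, 8 were lower, against 3.76% of tested genes, and 1 was higher, against 1.77%, which makes 9 in all, against 5.53%. At a q under 0.1 the count was again 0, against 0.659%. In the authors' deposited table the smallest q of a crystallin was 0.185, so each of these differences is described here and none counts as a change. The median log2 fold change of knockdown over wild-type was -0.97 over the 16 tested crystallins and -0.03 over the 18800 tested genes above 0 in both groups, and -0.56 over the 24 crystallins above 0 in both. The 3.74% counts 2-fold lower genes among the 18800 but divides by all 18954 tested genes, so it is a lower bound. All of these shares cover tested genes of every level and were not matched to the levels of the crystallins. The tested genes are those with more fragments. Since the crystallins were measured in the same libraries and are not replicates, the counts describe these genes and are no test of the family.

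**Figure D2:**
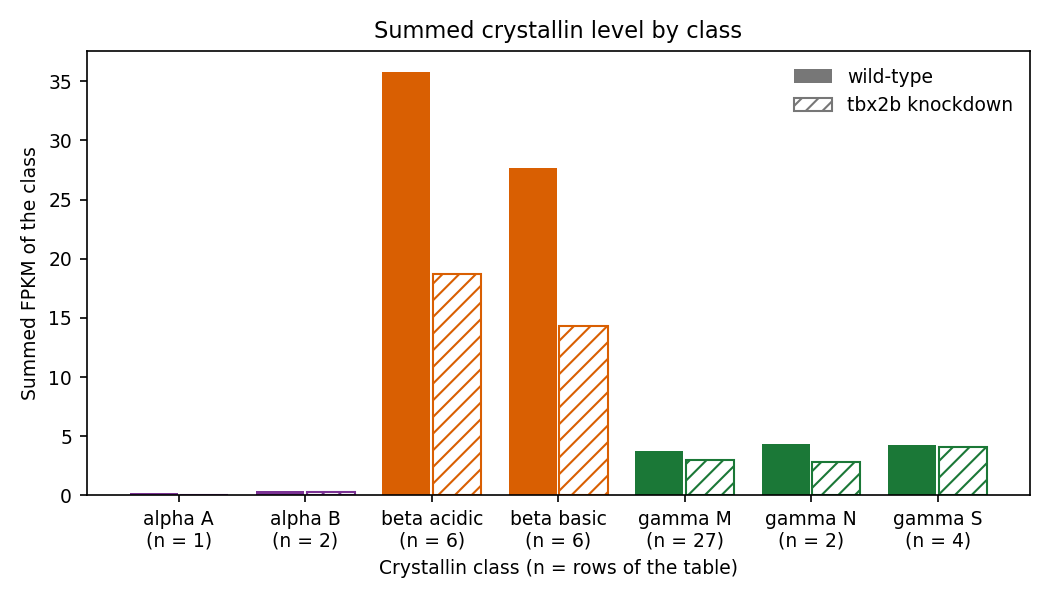
Summed FPKM of each crystallin class, with filled bars for wild-type and hatched bars for the knockdown; n is the number of rows in the class. Acidic and basic beta crystallins are the tallest bars, at 35.8 and 27.7 in wild-type and 18.7 and 14.3 in the knockdown, and the gamma S bars are nearly equal at 4.22 and 4.06.

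The tested beta crystallins were lower in the knockdown, and the acidic and basic sums differed by similar factors. The summed level of the class was 63.5 FPKM in wild-type and 33.0 in the knockdown, 1.92-fold lower. The factor was 1.91 for the 6 acidic and 1.93 for the 6 basic genes. Of the basic sum of 27.7 FPKM in wild-type, crybb1 held 17.5, and its row shares a region with other rows, as described below. All 9 tested beta genes were lower, with a median of 2.22-fold and a range from 1.63-fold to 2.64-fold, although their wild-type levels spanned 26.2-fold. In wild-type 8 beta genes were at 1 FPKM or more, and 8 were in the knockdown. The order of the 9 levels differed between the groups only in the places of cryba1b and crybb1l2, which are next to each other in it.

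The most abundant crystallin was crybb1, a basic beta subunit, at 17.5 FPKM in wild-type and 9.55 in the knockdown. It ranked 4731st in wild-type among the 24892 genes above 0. Next came the acidic subunit gene cryba1l, at 11.9 and 7.29 FPKM, and the acidic subunit gene cryba4, at 10.6 and 5.93 FPKM. These 3 had the smaller differences among the tested beta genes, with log2 fold changes between -0.87 and -0.70, while the other 6 lay between -1.40 and -1.04.

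Among the acidic genes of middle level, cryba1b was at 5.52 FPKM in wild-type and 2.21 in the knockdown. The authors' deposited table gives it the lowest p of the family, 0.00165 (q = 0.185), for a 2.49-fold difference. Cryba2a was at 4.85 and 1.83 FPKM, the largest factor among the tested beta genes at 2.64-fold (deposited p = 0.00665, the authors' deposited table). Its paralog cryba2b was at 2.75 and 1.20 FPKM, a 2.29-fold difference. Both paralogs of the A2 subunit thus differed by more than 2-fold, and neither was called. The acidic gene cryba1a, which was not tested, was at 0.152 and 0.227 FPKM and was the beta gene with the higher value in the knockdown.

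Among the basic genes, crybb1l2 was at 5.05 FPKM in wild-type and 2.46 in the knockdown, and crybb1l1 was at 3.97 and 1.79. These genes, whose symbols mark them as like crybb1, were 2.05-fold and 2.22-fold lower. Crybb3 was at 0.668 and 0.264 FPKM, 2.53-fold lower (deposited p = 0.0628, the authors' deposited table). The remaining basic genes were not tested: crybb1l3 was at 0.310 and 0.259 FPKM, and crybb2 had 0.212 FPKM in wild-type while the knockdown value is listed as 0.

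Crybb1 and cryba4 differed little in fold change but much in the authors' test. Their factors were 1.83-fold and 1.79-fold, while the deposited test statistic was -0.47 for crybb1 (deposited p = 0.354, the authors' deposited table) and -1.66 for cryba4 (p = 0.0504). The row of crybb1 carries a merged region, chromosome 10 from 45495491 to 45529531 on the Zv9 build, that it shares with 3 other rows. These include cldn5b, a claudin of tight junctions, at 57.3 and 37.8 FPKM, and acads, a mitochondrial acyl-CoA dehydrogenase gene, at 16.3 and 18.0 FPKM. The part of this shared region in the crybb1 values was not tested; without crybb1 the beta class was 0.97 lower on the log2 scale of summed FPKM, and with it 0.94 lower.

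Acidic and basic beta genes lay side by side at several places of the genome, and neighbours differed in level. On chromosome 10 the regions of crybb1 and cryba4 were 15.1 kb apart, and their log2 fold changes were -0.87 and -0.84. On chromosome 14, 2.85 kb separated crybb1l1 from cryba1l, whose wild-type levels were 3.97 and 11.9 FPKM and whose log2 fold changes were -1.15 and -0.70. On chromosome 15, 1.82 kb separated cryba1a from crybb1l3, both under 1 FPKM in each group. Members of a neighbouring pair were therefore either both detected at 1 FPKM or more or both below it at these 3 places. One more place, on chromosome 1, held crybb1l2 and, 4.95 kb away, a row that the table of current gene names calls cryba1l2, at 0.324 and 0.119 FPKM, so here 1 neighbour was above 1 FPKM and the other below.

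**Figure D3:**
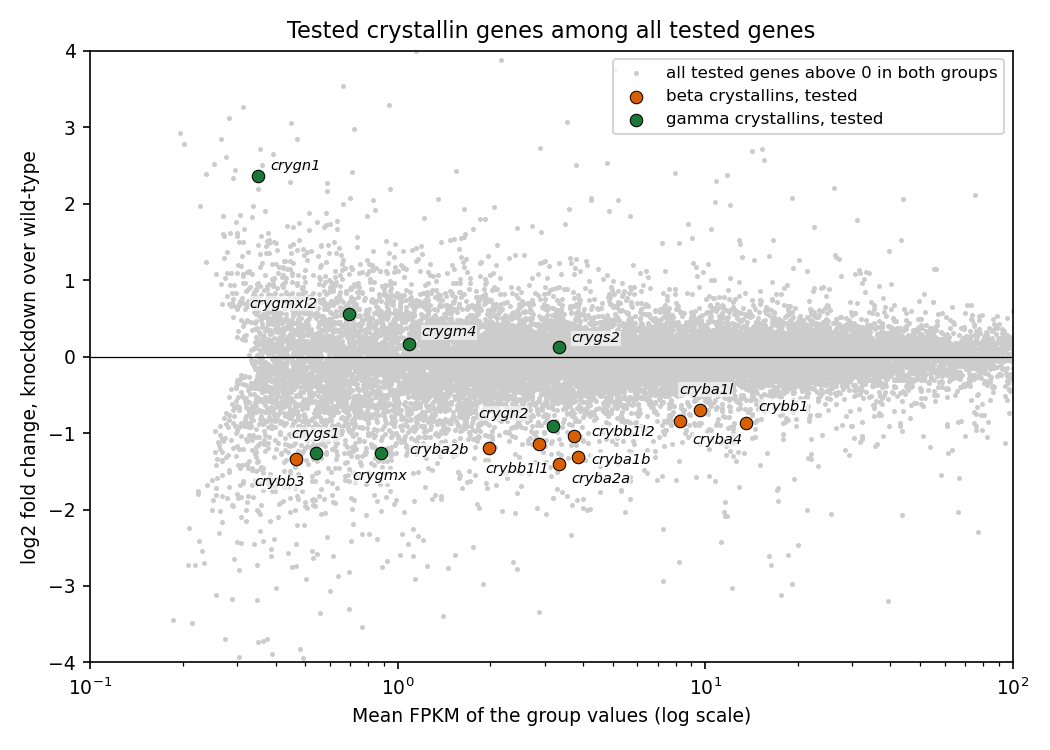
Log2 fold change (knockdown over wild-type) against the mean FPKM of the group values, on a log axis, for tested genes above 0 in both groups (grey), with the 9 beta (orange) and 7 gamma (green) crystallins named; 973 of the 18800 genes lie outside the axes. The 9 tested beta genes lie between -1.40 and -0.70. The 3 highest in wild-type are between -0.87 and -0.70, and the other 6 between -1.40 and -1.04. Crygn1 is the highest gamma gene at 2.36.

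Gamma crystallins showed no common direction. The summed level of the 33 genes was 12.2 FPKM in wild-type and 9.82 in the knockdown, and of the 7 tested genes 3 were lower and 4 higher. The gamma N genes, regarded as intermediate between the beta and gamma families, went in opposite directions. Crygn2 was at 4.19 FPKM in wild-type and 2.23 in the knockdown, 1.88-fold lower (p = 0.0356 and q = 0.821, the authors' deposited table). Its paralog crygn1 was at 0.114 and 0.586 FPKM, 5.14-fold higher (p = 0.0053 and q = 0.341, the authors' deposited table). Crygn1 was the tested crystallin with the largest fold difference in either direction, at a level below 1 FPKM in both groups.

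The gamma S genes, relatives of the monomeric gamma S crystallin of the mammalian lens cortex, were at 4.22 FPKM in sum in wild-type and at 4.06 in knockdown cells. Most of this came from crygs2, at 3.19 and 3.50 FPKM, whose row shares its region with the methyltransferase-like gene lcmt2, at 2.64 and 2.86 FPKM. The part of that overlap was not tested. Crygs1 was at 0.765 and 0.32 FPKM, 2.39-fold lower (p = 0.253, the authors' deposited table). Crygs4 was at 0.256 and 0.194 FPKM, and crygs3 had 0.0438 FPKM in the knockdown and a wild-type value listed as 0; neither was tested.

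Nearly all gamma M genes were at or near 0. Of 27 rows 24 lie on chromosome 9 and none of these was tested. They sit, with crygs3 and crygs4, in an array of 373 kb on chromosome 9 from 23026436 to 23399587 on the Zv9 build. Of its 37 rows 26 match the lower-case crystallin symbols used here. Of these 26 genes 15 were at 0 in both groups, 9 were above 0 in wild-type and 6 in the knockdown. The highest was crygm2d3, at 0.298 and 0.312 FPKM, and the 26 genes summed to 1.13 FPKM in wild-type and 0.698 in the knockdown. The crygm2d genes are closely related tandem copies, so reads can be split or lost among them, and 6 members of the array share a merged region with another row, so values of single copies are uncertain.

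The 3 gamma M genes elsewhere in the genome were the gamma M genes that the authors tested. Crygmx was at 1.25 FPKM in wild-type and 0.520 in the knockdown, 2.4-fold lower (deposited p = 0.0323, the authors' deposited table). Its neighbour crygmxl2, 1.14 kb away on chromosome 12, was at 0.562 and 0.828 FPKM, so the adjacent genes differed in direction. Crygm4, on chromosome 6, was at 1.03 and 1.15 FPKM. Together the 3 genes summed to 2.84 FPKM in wild-type and 2.49 in the knockdown.

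Alpha crystallins were at very low levels in both groups and none was tested. Cryaa, the alpha A chaperone of lens cells, had 0.174 FPKM in wild-type, and its knockdown value is listed as 0. Of the alpha B genes, cryaba was at 0.0697 and 0.0907 FPKM and cryabb at 0.264 and 0.199 FPKM. The small heat shock gene hspb2, whose region ends 0.295 kb before that of cryabb on chromosome 5, had a wild-type value listed as 0 and a knockdown value of 0.0773 FPKM. The related small heat shock proteins were not uniformly low: hspb1, a stress-induced chaperone, was at 527 and 408 FPKM, and hspb8 was at 11.7 and 15.5 FPKM. Among 10 such genes 4 were tested, 3 of them lower, against 54.1% of all tested genes, and 1 higher. None was called, against 0.438%, and 2 of the 4 were at least 2-fold lower, against 3.74%. These 2 were of low level: hspb11, at 1.19 and 0.223 FPKM, and hspb15, at 0.470 and 0.202 FPKM. The median log2 fold change was -0.80 over the 4 tested genes and 0.12 over the listed genes above 0 in both groups. The latter set adds untested genes, each under 1 FPKM in both groups. Among the untested genes 2 were at 0 in both groups. Another 4 genes, for enzymes and binding proteins, bear the name crystallin but belong to other families (crym, cryl1, cryz and cryzl1). They ranged from 5.19 to 7.58 FPKM in wild-type, with a median log2 fold change of -0.10. None was called, again against 0.438%.

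**Figure D4:**
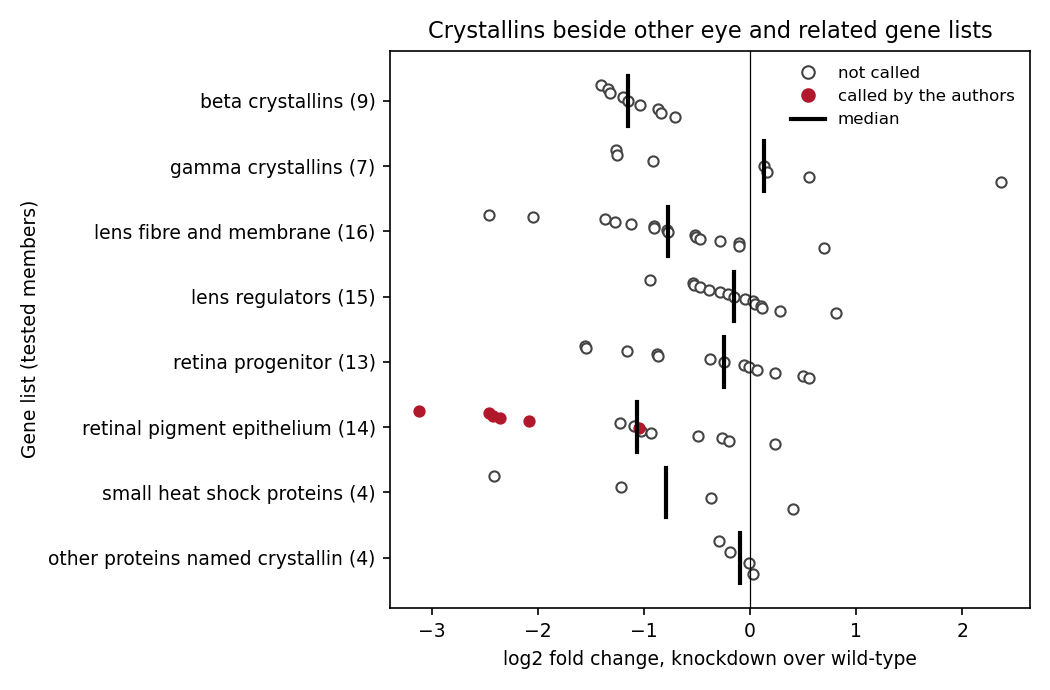
Log2 fold change (knockdown over wild-type) of the tested members of each list, numbers in parentheses, with filled red points for genes called by the authors and a black bar at the median. No crystallin and no other lens gene is filled. The beta crystallins have a median of -1.15 and the gamma crystallins one of 0.13. In the retinal pigment epithelium list, which includes melanin genes, 6 of 14 are filled.

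Most tested genes of lens fibres and their membranes had lower values in the knockdown, at levels that ranged widely. Of 23 genes listed for lens fibres and their membranes 21 were found and 16 were tested. Of the tested genes 15 were lower, against 54.1% of all tested genes, and 1 was higher. None was called, against 0.438%, and 5 were at least 2-fold lower, against 3.74%. These 5 were at 2.19 FPKM or less in wild-type. The median log2 fold change of the 16 genes was -0.78. The higher gene was lim2.5, at 0.221 FPKM in wild-type and 0.359 in the knockdown. The fibre genes mipa and mipb, which encode the water channel aquaporin 0, were both lower. Mipa stood at 1.24 FPKM in wild-type and 0.480 in knockdown cells (p = 0.0024 and q = 0.231, the authors' deposited table). Mipb stood at 0.932 and 0.226 FPKM (p = 0.0009 and q = 0.125, the authors' deposited table). The lens gap junction genes gja3 (0.369 and 0.215 FPKM), gja8a (0.470 and 0.338 FPKM) and gja8b (1.20 and 0.703 FPKM) were lower without a p under 0.05. The intermediate filament gene of the lens bfsp2 was at 0.0127 and 0.0113 FPKM and not tested. Some genes of this list are made widely outside the lens, such as the N-cadherin gene cdh2, at 137 and 127 FPKM. The lens membrane protein gene lim2.1 was at 8.97 and 8.37 FPKM, and the fatty acid-binding protein gene fabp11a was at 56.0 and 30.0 FPKM (p = 0.0017 and q = 0.188, the authors' deposited table).

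Regulators of lens development differed less. Of 20 listed 19 were found and 15 were tested, with a median log2 fold change of -0.15. Of the 15 tested genes 9 were lower, against 54.1% of all tested genes, and 6 were higher. None was called, against 0.438%, and none was at least 2-fold lower, against 3.74%. Foxe3, a forkhead factor of the lens epithelium, was at 3.09 FPKM in wild-type and 3.32 in the knockdown. Pitx3, a homeobox factor of the lens and of dopaminergic neurons, was at 48.2 and 52.3 FPKM. Prox1a, a homeobox factor needed for fibre elongation in mouse, was at 4.76 and 4.29 FPKM, and maf, an activator of crystallin genes in mouse, was at 6.18 and 4.26 FPKM. The lens heat shock factor gene hsf4 was at 0.0449 and 0.0946 FPKM and not tested.

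Several of these regulators also act in the brain and retina. The Pax6 genes, needed for eye formation, were at 100.5 and 72.6 FPKM (pax6a) and at 24.9 and 17.3 FPKM (pax6b). Six3a, a homeobox gene of forebrain and eye, was at 21.0 and 20.3 FPKM, and six3b was at 49.0 and 59.6 FPKM. The SoxB1 genes were at 7.22 and 7.47 FPKM (sox1a), 31.2 and 27.1 FPKM (sox1b) and 161 and 123 FPKM (sox2). Mafba, a large Maf factor known from the hindbrain, was at 13.6 and 7.04 FPKM (p = 0.0004 and q = 0.0715, the authors' deposited table). The RNA-binding protein gene celf1 was at 52.0 and 53.1 FPKM. The homeobox gene meis2b was at 3.93 and 6.91 FPKM (p = 0.0055 and q = 0.344, the authors' deposited table).

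Genes listed for the retina, for the retinal pigment epithelium and melanin, and for the pineal were set beside the lens genes. Which of the sorted cells their RNA came from was not tested. Of 14 retinal progenitor genes 13 were tested, 9 of them lower, against 54.1% of all tested genes, and 4 higher. None was called, against 0.438%. The median log2 fold change of the tested genes was -0.25, and the 14 genes summed to 117 FPKM in wild-type and 101 in the knockdown. Of the 13 tested genes 3 were at least 2-fold lower, against 3.74%. Of 14 tested retinal pigment epithelium and melanin genes 13 were lower, against 54.1% of tested genes, and 6 were called as lower, against 0.332%. Their median log2 fold change was -1.07 over the 14 tested genes, and 9 were at least 2-fold lower, against 3.74%. The 15 genes found of this list summed to 288 FPKM in wild-type and 129 in the knockdown. The called genes, rpe65a, rlbp1b, tyrp1b, dct, pmelb and oca2, fell by factors from 2.06 to 8.67. Of 6 tested pineal genes all were lower, against 54.1% of tested genes, and 1 was called as lower, against 0.332%. The median log2 fold change of the 6 genes was -0.66, and 1 was at least 2-fold lower, against 3.74%. The called gene was the homeobox gene otx5, at 16.9 and 7.71 FPKM. The gene flh, whose regulatory sequence drives the reporter, was at 238 and 129 FPKM (q = 0.0986, the authors' deposited table). The part of the eye or of the pineal cells in the crystallin values was not tested.

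The FPKM sums of the groups differed, and rescaling them to TPM shifts all log2 fold changes up by 0.11; this left 15 of the 24 crystallins above 0 in both groups lower, as before. Injected embryos were set against uninjected ones, so the injection and the loss of Tbx2b cannot be told apart.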

How the data were processed

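RNA sequencing libraries from 8 samples, 4 per group, were processed by the authors on the Zv9 build with Bowtie2, TopHat2, Cuffdiff, Trimmomatic 0.32, FastQC 0.10.0 and CASAVA 1.8.2, per the submitters' processing notes. Their settings, the annotation and how technical replicates entered the test were not given in the sources used here. Per the file headers, the table holds an FPKM value for each gene in each group and a log2 fold change of knockdown against wild-type. For the crystallins this log2 value differed from the ratio of the deposited FPKM values by at most 7.1e-06. The deposited p-value, q-value and test statistic (a score) are the authors'; the q differed by at most 5.2e-07 from a Benjamini-Hochberg adjustment of the p over 18954 tested genes.

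Members were matched by symbol as spelled in the table, and lists by symbol or RefSeq synonym (Python 3.11.15, pandas 2.3.3). Medians were taken over log2 ratios of FPKM without a pseudocount. Group values allow no test of their own, and calls are those of the authors. Depth is unknown. Coordinates are Zv9 regions as deposited; whether starts count from 0 or 1 is not stated. The members and lists were chosen with earlier results of these data known. Crystallins at 1 FPKM or tested were named, as were called list members, 11 lens regulators, and lens genes at 5 FPKM or more. Retinal, pigment and pineal genes that the same rule reaches are given as counts, medians and sums. Mipa, mipb, lim2.5, bfsp2, the gja genes, hspb2, hspb11, hspb15, the crym to cryzl1 group and low crystallins named singly were chosen after their values were seen. Computations were tested on simulated data.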

Additional observations from a re-analysis of the deposited data

How the results depend on the processing

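The median log2 fold change of the crystallins above 0 in both groups was -0.56. It was -0.10 on log2(FPKM + 1), -0.70 on log2(FPKM + 0.1), -0.91 for genes with a mean of at least 1 FPKM, -0.45 rescaled to TPM, -0.84 without rows that share a region and -0.97 over tested genes. With rows named crystallin by the table of current names added, it was -0.41, and without the beta class it turned to 0.13; both settings were chosen after seeing the data. The number of crystallins lower in the knockdown was 15 of 24, then 9 of 11 with a mean of at least 1 FPKM and 5 of 13 without the beta class, both of which count fewer genes, and stayed within 1.5 times under the other 6 settings. No crystallin was called by the authors' flag or at a deposited q under 0.1; at an unadjusted p under 0.05 there were 9, against 5.53% of tested genes. The log2 ratio of summed beta FPKM was -0.94, or -0.97 without crybb1, which also is the beta row with a shared region, and -0.84 as TPM. For alpha it was -0.81, or -1.43 without cryabb, again the row with a shared region, and -0.70 as TPM. For gamma it was -0.32, or -0.51 without crygs2, -0.54 without rows that share a region and -0.21 as TPM. The median of the other lens genes was -0.47, or -0.18 on log2(FPKM + 1), -0.24 with a mean of at least 1 FPKM and -0.37 as TPM. Rescaling to TPM adds 0.11 to each log2 value. Several other settings count fewer genes, and the pseudocount settings count 33 crystallins in place of 24. Apart from these points, the cause of the shifts was not tested.

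No paired analysis was possible because only group values were deposited, with no column for a replicate; leaving out each library in turn was not run for the same reason. Depth is unknown, so the error of low values such as those of the alpha and gamma M genes cannot be given.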

Other observations

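By current gene names and RefSeq synonyms (assembly GRCz12tu), 11 further rows are crystallins, though their deposited symbols do not show it. The authors tested 2 of them and called none, against 0.438% of all tested genes. Of the 11 rows, 7 are gamma M2 copies inside the chromosome 9 array, at no more than 0.262 FPKM in either group. The non-lens relatives crybg1a, deposited as aim1a, and crybg1b, deposited as aim1b, were the 2 that were tested, at 2.58 and 2.97 FPKM and at 0.894 and 0.937 FPKM. Crybgx was at 0.0300 and 0.0734 FPKM and was not tested. A further row of the array, CRYGB in capitals, was listed at 0 in both groups.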
